A study of Macaca fascicularis with 6 samples.

Results

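The fetuin family consists of AHSG (fetuin-A), FETUB (fetuin-B) and HRG (histidine-rich glycoprotein), 3 plasma proteins that hepatocytes secrete. Their liver transcripts were read on Affymetrix arrays from cynomolgus macaques (Macaca fascicularis). The members were all probe sets whose only annotated symbol was 1 of these 3 genes. This gave 7 probe sets, of 41097 with 1 symbol: 2 for AHSG, 3 for FETUB and 2 for HRG. The 3 genes stand among 19775 symbols named in this way. They had been picked with the contrast of ligand and vehicle in these arrays already known, so their own differences are given as a description, without a test.

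Fetuins carry domains related to the cystatins, a superfamily of inhibitors of cysteine proteases. AHSG binds calcium phosphate in blood and keeps it from precipitating, and it was also described as an inhibitor of the insulin receptor kinase. FETUB inhibits ovastacin, the protease of the egg that hardens its coat after fertilisation, a role known from mice. HRG binds heparin, plasminogen and thrombospondin and acts in coagulation and the clearance of dying cells. In the gene table of the macaque assembly T2T-MFA8v1.1, from which only names and gene order were taken, AHSG, FETUB and HRG lay next to each other on chromosome 2 in this order, with DNAJB11 before AHSG.

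The series held liver RNA of 3 animals that had received a ligand for LXR, the liver X receptor, and of 3 that had received vehicle. Every array came from a separate animal, per the submitters' design text. LXR is a nuclear receptor that binds oxysterols and raises transcription of genes for sterol export and lipogenesis. Ligand arrays are titled with the letters GW, and the compound, dose, duration of treatment, sex and age were not given in the sources used here. Values were MAS5 signals, the intensity of a probe set in arbitrary units, and the probes had been designed against human transcripts, so a sequence difference between the species can lower a signal. Signal levels of different probe sets are therefore not read as amounts of RNA. The summed signals given below for cell type markers are weighted towards the bright probe sets of a list. The median signal of an array lay between 111 and 139. On the first principal component, which held 23.0% of the variance, ligand array 1 stood at -89.8 and the other 5 arrays between 0.632 and 36.8.

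FETUB was the member with lower signals in the ligand animals, on each of its 3 probe sets. The brightest, 210521_s_at, had signals of 2029, 4059 and 2307 on ligand arrays 1 to 3, against 6499, 14179 and 10325 on vehicle arrays 1 to 3. The highest ligand array lay below the lowest vehicle array. The mean signal was 2799 ± 1101 with the ligand and 10334 ± 3840 with vehicle (SD, n = 3 each). On the scale of log2(signal + 16) the difference, ligand minus vehicle, was -1.88 ± 0.33 (SE), a 3.67-fold lower signal. Of 27304 probe sets bright enough to be tested, 33 had a more negative difference. Leaving out 1 array at a time gave at the extremes -2.18 (ligand array 2 left out) and -1.61 (vehicle array 2 left out).

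The second FETUB probe set, 214417_s_at, was dimmer and its difference smaller. It had signals of 311, 400 and 271 with the ligand, against 429, 639 and 497 with vehicle, again without overlap. The means were 327 ± 66.1 with the ligand and 522 ± 107 with vehicle (SD, n = 3 each), a log2 difference of -0.65 ± 0.29 (SE), or a 1.57-fold lower signal. The third, 210520_at, had signals of 45.0, 25.9 and 113 with the ligand, against 120, 180 and 164 with vehicle. Its mean over the 6 arrays was below the brightness filter of 129, so it was not fitted, and its log2 difference of -1.29 has no SE. All 3 probe sets of FETUB thus had every ligand array below every vehicle array, while the size of the difference depended on the probe set. Among the tested probe sets of all genes, 4.96% had every ligand array below every vehicle array. That share stands beside the FETUB count for scale only, since FETUB had been picked on this contrast.

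AHSG had higher mean signals with the ligand on both of its probe sets, with overlapping groups. On 204551_s_at, the signals were 81299, 62355 and 68445 on ligand arrays 1 to 3 and 60420, 64099 and 50200 on vehicle arrays 1 to 3. Ligand array 2 lay below vehicle array 2. The means were 70700 ± 9671 with the ligand and 58240 ± 7201 with vehicle (SD, n = 3 each), and the log2 difference was 0.28 ± 0.17 (SE), or 1.21-fold. It was 0.17 without ligand array 1, 0.18 without vehicle array 3 and 0.16 after quantile normalization. On 210929_s_at the signals were 63283, 67689 and 53554 with the ligand, against 41174, 54807 and 33499 with vehicle. Here ligand array 3 lay just below vehicle array 2, and the log2 difference was 0.53 ± 0.20 (SE), or 1.45-fold, with 0.37 without vehicle array 3.

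HRG did not separate the groups. Its brighter probe set, 206226_at, had signals of 169255, 142986 and 140777 with the ligand, against 141268, 162410 and 145746 with vehicle. The means were 151006 ± 15843 with the ligand and 149808 ± 11141 with vehicle (SD, n = 3 each), and the log2 difference was 0.01 ± 0.15 (SE), below its error. Its sign turned to negative after quantile normalization (-0.06) and after median centring (-0.03). Only 6 to 19 probe sets of an array were brighter than 206226_at. Whether signals so near the top of the scale still follow the amount of RNA was not tested. The dimmer probe set, 31835_at, had signals of 6369, 8669 and 5005 with the ligand and 11243, 6407 and 5972 with vehicle. Vehicle array 1 was the highest of the 6, and the log2 difference was -0.21 ± 0.28 (SE), or 0.07 without that array.

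**Figure D1:**
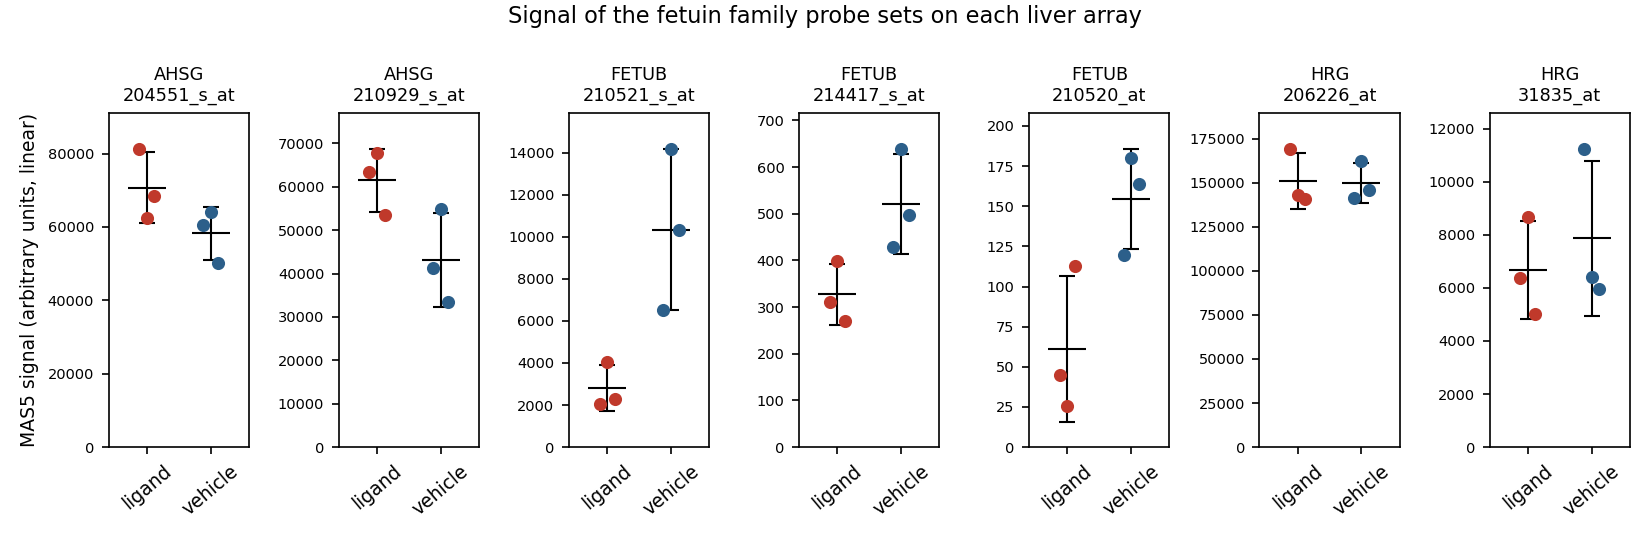
MAS5 signal (vertical axis, arbitrary units on a linear scale from 0) of the 7 probe sets of AHSG, FETUB and HRG on each liver array, with the 3 ligand arrays in red on the left and the 3 vehicle arrays in blue on the right of each panel; horizontal marks are means and bars are SD. The groups are apart on the 3 FETUB probe sets, with the ligand lower, and overlap on both AHSG and both HRG probe sets.

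The values of the 3 neighbouring genes stand side by side here, and differences between the members were not tested. The log2 differences of their brightest probe sets were -1.88 for FETUB, 0.28 for AHSG and 0.01 for HRG. Averaged over all probe sets of a gene they were -1.27, 0.41 and -0.10. Probe sets of 1 gene were 1.23 apart on the log2 scale for FETUB, 0.26 for AHSG and 0.22 for HRG. In limma's test with Benjamini-Hochberg adjustment over all 27304 probe sets, 0 had an adjusted p under 0.05 (0%), so none of the 6 member probe sets among them was called, and nothing about the members is read from this. At an unadjusted p under 0.05 there were 1523 probe sets over the whole array, or 5.58%.

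**Figure D2:**
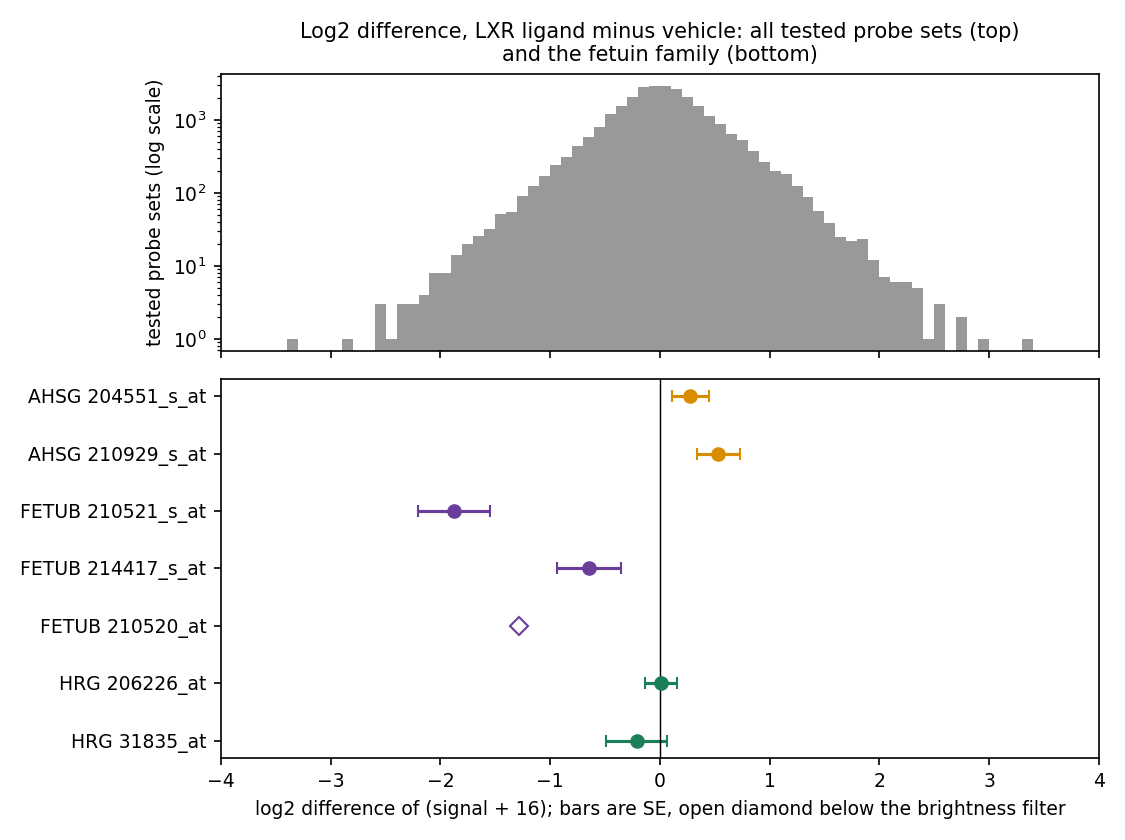
Log2 difference of (signal + 16), ligand minus vehicle (horizontal axis), for all 27304 tested probe sets as a histogram with a log count axis (top) and for the 7 fetuin family probe sets with SE bars (bottom); the open diamond is the FETUB probe set below the brightness filter, drawn without a bar. FETUB lies at -1.88, -0.65 and -1.29, AHSG at 0.28 and 0.53, and HRG at 0.01 and -0.21.

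Within a group the spread differed between probe sets, also between those of 1 gene. The SD between animals of 1 group, pooled over ligand and vehicle on the log2 scale, was 0.19 and 0.28 for the AHSG probe sets. It was 0.55, 0.28 and 0.61 for FETUB 210521_s_at, 214417_s_at and 210520_at. For HRG it was 0.13 on 206226_at and 0.45 on 31835_at, while the median over all tested probe sets was 0.40. Ligand array 2 had the highest FETUB signal of its group on 210521_s_at and 214417_s_at, and vehicle array 2 the highest of all arrays on all 3 FETUB probe sets. These 2 FETUB probe sets moved together over the 6 arrays (Pearson's r = 0.97) and also in their deviations from the group means (r = 0.92). The dim probe set 210520_at had r = 0.66 with 210521_s_at over the 6 arrays but r = -0.18 in the deviations. Between the 2 AHSG probe sets r was 0.77, and 0.54 in the deviations. The 2 HRG probe sets had r = -0.27 on both measures, so they did not follow each other. Between the brightest probe sets of different members, r in the deviations was 0.74 for AHSG with HRG, -0.37 for AHSG with FETUB and 0.06 for FETUB with HRG. Each of these values describes 6 arrays that share their scaling.

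**Figure D3:**
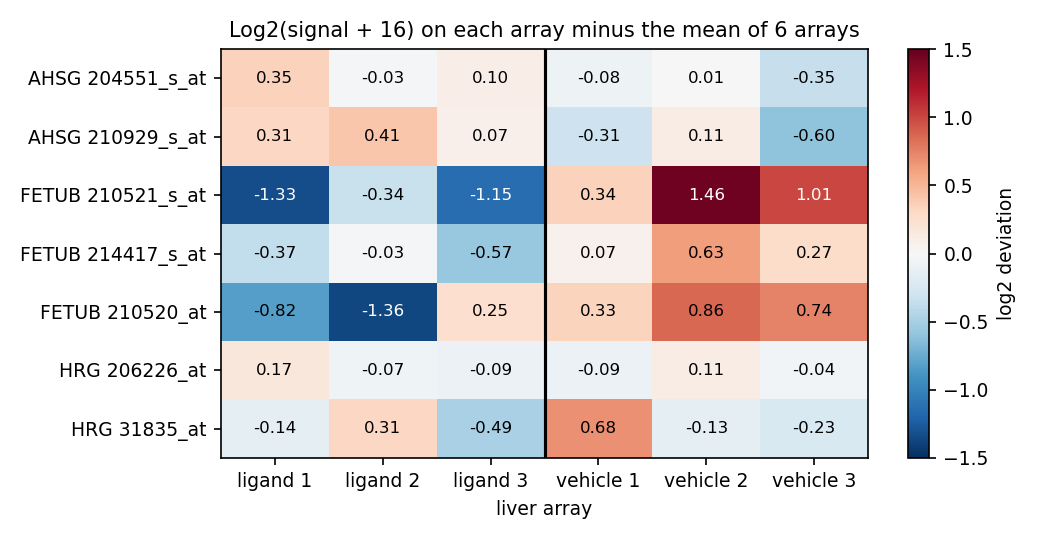
Log2(signal + 16) of each fetuin family probe set (rows) on each liver array (columns, ligand arrays left of the black line, vehicle arrays right of it) minus that probe set's mean over the 6 arrays, with blue below and red above the mean. FETUB 210521_s_at runs from -1.33 on ligand array 1 to 1.46 on vehicle array 2, and HRG 206226_at stays between -0.09 and 0.17.

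Genes that lie near the family on the human chromosome had log2 differences between -0.22 and 0.30 on their brightest tested probe sets. Of 9 such neighbours, 6 were measured, that is, named as the sole gene of a probe set in the fit, and 0 passed in limma. Their median log2 difference was 0.11, beside 0.0032 over all tested probe sets, and it was -0.0025 without ligand array 1 and 0.0055 without vehicle array 3. DNAJB11, an ER chaperone, was at 0.30 ± 0.21 (SE), and TBCCD1, a tubulin-binding protein, 0.16 ± 0.36 (SE). RFC4, a subunit of the clamp loader of DNA replication, had -0.22 ± 0.24 (SE), and CRYGS, a lens crystallin, -0.01 ± 0.51 (SE). ST6GAL1, which adds sialic acid to secreted glycoproteins, had 0.10 ± 0.16 (SE).

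KNG1, the kininogen that releases bradykinin, carries cystatin domains and follows HRG in the human genome. In the macaque gene table it lay on the same chromosome but apart from HRG, between EIF4A2 and STAC, and DCLK3 was the next named coding gene after HRG. KNG1 had signals of 76653, 47928 and 53136 with the ligand, against 56066, 59437 and 46223 with vehicle, which overlapped. Its log2 difference was 0.11 ± 0.20 (SE), with adjusted p = 0.967 in limma. Of the 14 listed genes of the cystatin superfamily, 9 were measured, KNG1 included. Of these 7 were higher and 2 lower with the ligand, 0 passed, and the median log2 difference was 0.12. SPP2, a secreted bone phosphoprotein with a cystatin-like fold, had signals of 3296, 2703 and 3524 with the ligand and 2811, 2512 and 1233 with vehicle. Its log2 difference was 0.61 ± 0.30 (SE), with adjusted p = 0.880 in limma. CST3, the cystatin C measured in blood to follow kidney function, had -0.10 ± 0.16 (SE). CSTB, which inhibits cathepsins inside the cell, had 0.15 ± 0.23 (SE), and CSTA, its close relative, 0.11 ± 0.33 (SE). CST7, a cystatin of immune cells, had 0.21 ± 0.55 (SE), and CST8, one of the testis and epididymis, 0.57 ± 0.53 (SE). The salivary cystatins CST2 and CST4 had -0.13 ± 0.32 and 0.12 ± 0.63 (SE).

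The proteases and binding partners of the family were read next. With the ligand, 7 of the 13 measured were higher and 6 lower, 0 passed, and the median log2 difference was 0.09. HPSE, the heparanase that cuts the heparan sulfate chains to which HRG binds, had signals of 625, 855 and 513 with the ligand, against 388, 129 and 484 with vehicle. Its log2 difference was 1.11 ± 0.44 (SE), with adjusted p = 0.873 in limma. CTSL, a lysosomal cysteine protease of the kind that cystatins inhibit, had signals of 13584, 13570 and 14151 with the ligand and 11146, 10681 and 11505 with vehicle. The groups did not overlap, as in 5.99% of tested probe sets in this direction, and the log2 difference was 0.31 ± 0.15 (SE), with adjusted p = 0.880. THBS2, a thrombospondin of the extracellular matrix, had 0.91 ± 0.46 (SE).

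AHSG has been reported to act on the insulin receptor and to bind TGF-beta. The list for these receptor systems had 14 genes, all measured, and also held TLR4, which belongs to neither system. Of the 14, 7 were higher and 7 lower, 0 passed, and the median log2 difference was 0.0036. TGFBR2, the receptor subunit that binds TGF-beta, had signals of 3529, 2863 and 2782 with the ligand, against 1606, 1470 and 1417 with vehicle. All ligand arrays lay above all vehicle arrays, and the log2 difference was 1.02 ± 0.20 (SE), with adjusted p = 0.387 in limma. TGFB1, the cytokine itself, had 376, 279 and 370 with the ligand and 166, 156 and 156 with vehicle, a log2 difference of 1.02 ± 0.33 (SE) and adjusted p = 0.829. GRB14, an adaptor that holds the insulin receptor kinase in check, had 0.58 ± 0.27 (SE). TLR4 and BMP6 were lower, at -0.96 ± 0.56 and -0.54 ± 0.32 (SE), with overlapping groups. The insulin receptor gene INSR and its substrates IRS1 and IRS2, named after their values were seen, had log2 differences of -0.27 ± 0.22, -0.25 ± 0.25 and -0.40 ± 0.28 (SE), with overlapping groups each. In the list of mineral inhibitors, 7 of 9 measured genes were higher, 0 passed, and the median was 0.24. It holds SPP2 and also MGP, the matrix Gla protein that keeps vessels free of mineral, at 0.54 ± 0.38 (SE). ENPP1, which makes the mineral inhibitor pyrophosphate, was at 0.21 ± 0.18 (SE). CASR, 1 of the 2 lower genes of this list, was at -0.94 ± 0.59 (SE).

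Transcription factors of hepatocyte genes went both ways. Of 11 measured of 15 listed, 3 were higher and 8 lower with the ligand, 0 passed, and the median log2 difference was -0.07. At an unadjusted p under 0.05 there were 2 higher and 3 lower, where the whole array had 3.24% higher and 2.33% lower. FOXA1, a pioneer factor of liver enhancers, had signals of 1398, 1775 and 1515 with the ligand, against 2401, 2473 and 2628 with vehicle. These groups were apart, and the log2 difference was -0.68 ± 0.20 (SE), with adjusted p = 0.829 in limma. FOXA3, of the same family, had 1137, 1128 and 1267 with the ligand and 1654, 1543 and 1977 with vehicle, again apart, a log2 difference of -0.54 ± 0.21 (SE). CEBPA, which holds hepatocytes in their differentiated state, had -0.57 ± 0.22 (SE), with ligand array 1 above vehicle array 2. NFIB and NFIA, nuclear factors of the NFI family, had 0.61 ± 0.23 and 0.58 ± 0.23 (SE). Whether any of these bears on FETUB was not tested.

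AHSG is known as a negative acute phase protein, one that the liver makes less of in inflammation. The 13 measured genes of the other such proteins had a median log2 difference of 0.05, with 10 higher, 3 lower and 0 passing. TF, the iron carrier, had -0.71 ± 0.32 (SE), SERPINA6, the cortisol carrier, 0.48 ± 0.31 (SE), and PON1, an esterase of HDL, -0.19 ± 0.15 (SE). Among 16 measured positive acute phase genes, 8 were higher and 8 lower, 0 passed, and the median was -0.02. SERPINA3 and LBP had the largest negative values of this list, at -1.85 ± 0.32 and -1.34 ± 0.26 (SE). A1BG, a plasma glycoprotein, had signals of 11721, 16804 and 23582 with the ligand, against 32816, 38755 and 20199 with vehicle. Ligand array 3 lay above vehicle array 3, and the log2 difference was -0.82 ± 0.29 (SE).

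Other secreted liver proteins with reported effects on metabolism, the hepatokines, had 15 of 21 measured genes higher and 6 lower, 0 passing, and a median log2 difference of 0.11. SHBG, the carrier of sex steroids, had signals of 2010, 1840 and 1996 with the ligand, against 2860, 2700 and 2557 with vehicle. It was lower without overlap, as FETUB was, by a log2 difference of -0.47 ± 0.19 (SE), with adjusted p = 0.873 in limma. IGFBP2, which binds insulin-like growth factors, had -1.65 ± 0.78 (SE), with ligand signals spread between 3079 and 39606. FGF21, a hormone of the fasted liver, had 0.68 ± 0.35 (SE), and INHBC, an activin chain, 0.41 ± 0.21 (SE).

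**Figure D4:**
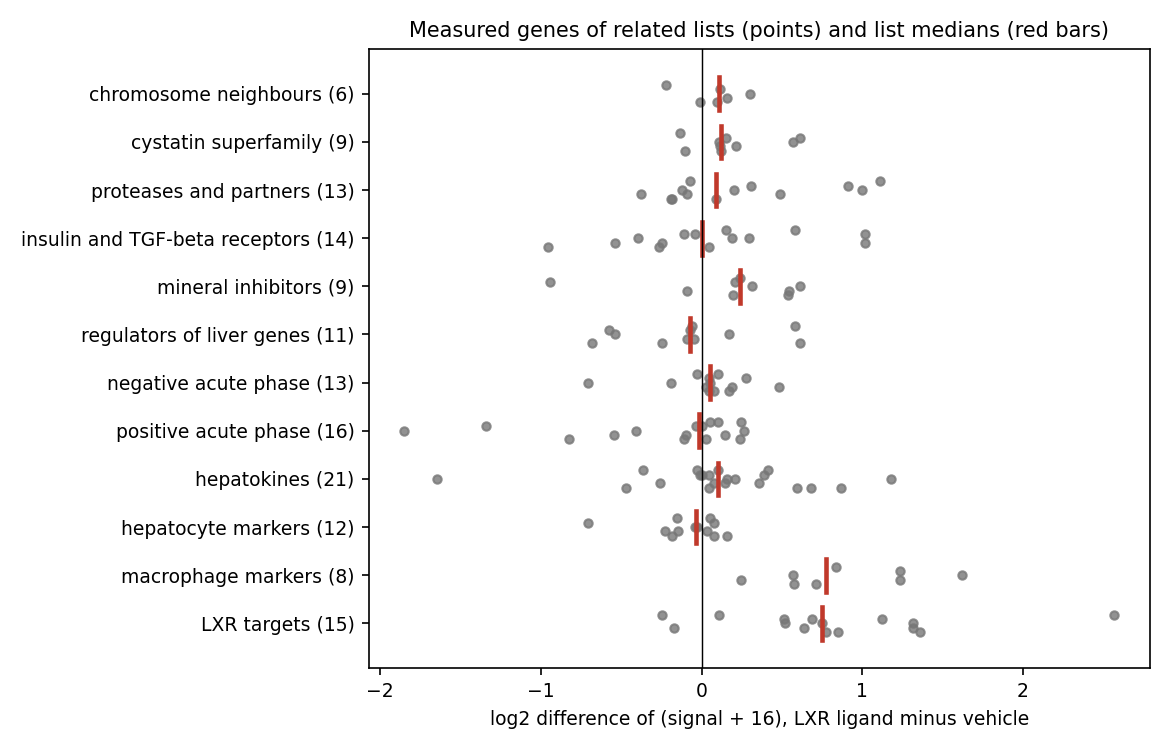
Log2 difference of (signal + 16), ligand minus vehicle (horizontal axis), for each measured gene (grey points) of 12 related lists (rows, number measured in brackets), with red bars at the list medians. The medians of chromosome neighbours, cystatins, acute phase genes, hepatokines and hepatocyte markers lie between -0.03 and 0.12, and those of macrophage markers and LXR targets at 0.77 and 0.75.

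The tissue carried the markers of liver. All 12 hepatocyte markers were measured. The summed signal of these markers ran from 916397 to 1017240 on ligand arrays and from 896388 to 988474 on vehicle arrays. Of these 5 were higher and 7 lower with the ligand, 0 passed, and the median log2 difference was -0.03. Albumin (ALB), named after its values were seen, had 0.08 ± 0.15 (SE). Markers of macrophages were higher on the ligand arrays for all 8 measured of 10 listed, with a summed signal of 12769 to 13773 on ligand arrays against 5614 to 8320 on vehicle arrays and a median log2 difference of 0.77. The summed signal of stellate cell and fibroblast markers was 33621 to 47761 with the ligand and 18172 to 28444 with vehicle, with 7 of 10 genes higher and a median log2 difference of 0.25. That median was 0.10 without ligand array 3, 0.13 without ligand array 2, 0.15 without vehicle array 2 and 0.45 without ligand array 1. The summed signal of this list came mostly from DCN and COL3A1, with means of 18750 and 10982 of 38471 on ligand arrays. COL1A1, a collagen chain named after its values were seen, was lower on all 3 ligand arrays, at -0.22 ± 0.20 (SE). Endothelial markers were higher for 9 of 10 measured, with a summed signal of 13321 to 16539 on ligand arrays and 11068 to 14157 on vehicle arrays and a median log2 difference of 0.37. The lower one was VWF, the von Willebrand factor of endothelium and platelets, with signals of 157, 156 and 377 with the ligand, against 4667, 2129 and 1340 with vehicle. Its log2 difference was -3.39 ± 0.47 (SE), with adjusted p = 0.319 in limma. The part of these cells in the FETUB difference was not tested. The remaining marker lists had few measured genes and 0 passing. Median log2 differences were 0.49 for 6 cholangiocyte markers, 0.12 for 4 markers of T and NK cells, -0.29 for 4 of B and plasma cells, -0.34 for 5 of neutrophils and 0.37 for 3 of red cells and platelets. Of these, the last was -0.24 without vehicle array 2, and the T and NK cell median -0.13 without the same array. In the red cell list HBB, the beta chain of haemoglobin, had signals of 865, 609 and 600 with the ligand, against 11085, 1255 and 828 with vehicle, so vehicle array 1 stood out. In pieces of tissue, fewer cells of a type and less RNA per cell cannot be told apart.

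RNA integrity was read from control probe sets, as the signal at the 3′ end over that at the 5′ end of a transcript. For GAPDH this was 2.61, 2.25 and 4.15 on ligand arrays 1 to 3 and 1.99, 2.50 and 3.25 on vehicle arrays 1 to 3. For actin it was 6.16, 6.26 and 16.04 with the ligand, against 4.45, 5.64 and 8.34 with vehicle. Ligand array 3 was the highest on both, and without it the FETUB 210521_s_at difference was -1.77. Without ligand array 1, the array apart on the first principal component, it was -1.68. Of 15 LXR targets, all measured, 13 had a positive difference and 0 passed. Their median was 0.75 on the log2 scale, but 0.51 without ligand array 1 and 0.85 without vehicle array 3. The gene at the median was APOE, named after its values were seen. It had signals of 128135, 17365 and 19218 with the ligand, against 22463, 19752 and 20280 with vehicle, so ligand array 1 stood out.

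Probe sets of other genes were ranked by their likeness to each member, as Pearson's r of the deviations from the group means over the 6 arrays. For FETUB 210521_s_at the 5 most alike were those of ACADSB, an enzyme of branched-chain amino acid breakdown (r = 0.998), FAM83A (0.997), NEMF (0.996), IMPACT (0.995) and IPO5, a nuclear import receptor (0.995). Over the 6 arrays, with the group difference left in, r with FETUB was 0.90 for ACADSB and 0.19 for IMPACT, and the ACADSB log2 difference was -0.27. For AHSG 204551_s_at they were ADRA2C, SPIDR, CES1P1, AP4S1 and BAGE2, at r = 0.994 to 0.999. For HRG 206226_at they were TPT1, CMAHP, XAF1, HSD3B2 and SIVA1, at r = 0.991 to 0.999. With 6 arrays such values are common: 331 of 22562 probe sets had r above 0.9 with FETUB, 433 with AHSG and 355 with HRG. For each member, 0 of the 5 most alike were also among the 5 highest by r over the 6 arrays.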

How the data were processed

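Liver RNA of 6 macaques, 3 per group, had been isolated on silica columns and biotin-labelled for Affymetrix arrays, per the labels. The deposited table holds 1 intensity per probe set and array, not logged, made with MAS5 according to the submitters' processing notes; version and scaling target are not given in the sources used here. The 2% trimmed mean was 500.1 on every array. Detection calls were not used here.

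Signals were transformed to log2(signal + 16). Without the 62 control probe sets, the 27304 probe sets with a mean signal no lower than the median of all means (129) entered limma 3.58.1 (R 4.3.3; lmFit, then eBayes with intensity trend). Tests were two-sided, with Benjamini-Hochberg adjustment over all of them and a threshold of 0.05. The median SE was 0.35, and the number of animals limits precision. A gene was represented by its brightest tested probe set with 1 symbol. Of 216 genes in 19 lists, 180 were measured. The members and lists were chosen with earlier results of these data known. Named were all member probe sets, measured neighbours and cystatins, up to 5 genes of each other list by smallest p, and the 5 probe sets most alike to each member. The fit was also run on simulated data, with changes larger than the FETUB difference. That run does not show how often smaller changes would be called. Replicate numbers were not taken to pair animals. Deviations of same-numbered arrays correlated at 0.04, -0.03 and 0.07, and those of differently numbered arrays between -0.08 and 0.03. With so few arrays these values cannot show whether same-numbered animals were paired or handled together. Alternatives covered the pseudocount, scaling, filter, eBayes settings, array weights, replicate block, single arrays left out and the choice of probe set. Figures were drawn with matplotlib 3.10.9.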

Additional observations from a re-analysis of the deposited data

How the results depend on the processing

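With 3 animals in each group and no detection calls, dim probe sets such as FETUB 210520_at carry the least certain values. No probe set passed in the fit as reported or under the other pseudocounts, scalings, filters, eBayes settings, array weights, the replicate block (0 called) or a threshold of 0.10. Leaving out 1 array gave 0 to 1 called: SREBF1 without ligand array 2, which is also the 1 call among the related lists (0 to 1), and ACAA2 without vehicle array 2. FETUB 210521_s_at stayed negative under all 13 alternatives, from -2.18 to -1.61 when 1 array was left out, and was -1.27 as the mean of the gene's 3 probe sets, which includes those with smaller differences. It was -1.88 with the replicate block. All its ligand arrays lay below all its vehicle arrays, so leaving out an array, another pseudocount or array weights could not turn its sign. The count of alternatives with a negative sign is therefore no measure of stability. AHSG 204551_s_at stayed positive under its 13 alternatives, between 0.16 and 0.41, and was 0.28 with the block. HRG 206226_at took the other sign under 7 of 13 alternatives, between -0.10 and 0.07, and was 0.01 with the block. In this balanced design the block cannot move a difference, so these equal values say nothing about stability. Of the 19 list medians, 10 took the other sign under at least 1 alternative. Among them were the neighbours (-0.0025 without ligand array 1) and, under the stricter brightness filter (75th percentile), which leaves fewer genes, red cells and platelets (-1.71), B and plasma cells (0.30) and T and NK cells (-0.11).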
